A study of Mus musculus with 10 samples.

Results

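Genes of translation termination, ribosome rescue and nonsense-mediated mRNA decay, 9 in all, are described here across hematopoietic stem cell (HSC) libraries of mice with and without Cre deletion of Nup214. The 9 genes are Gspt1 with its release partner Etf1, the recycling factor Abce1, the rescue pair Pelo and Hbs1l, and the surveillance factors Upf1, Upf2, Upf3b and Smg1. They were chosen by role out of 52096 genes in the table, and Gspt1 was chosen for its low values in the libraries with Cre, so its own values are a description with no test.

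HSCs had been sorted from bone marrow as LSK cells (lineage-negative, Sca-1-positive and Kit-positive) with CD150 and without CD48 on their surface, and their RNA was sequenced in 10 libraries. The HET group was 5 libraries from Nup214fl/+ mice that also carried Tie2-Cre, and the FL group was 5 libraries from Nup214fl/+ mice. All 10 libraries therefore carried 1 floxed Nup214 allele, and deletion and Cre itself cannot be told apart because no group had Cre alone. The Tie2 promoter drives Cre in endothelium and in blood cells. Nup214 is a protein of the nuclear pore on its cytoplasmic side, where exported mRNA is released. The labels give no age or sex of the mice and do not say whether each library is a separate mouse, so the p-values below measure spread between libraries that may be technical. Levels are in FPKM (fragments per kilobase of transcript, relative to all mapped fragments of a library), and fold changes are HET over FL on the log2(FPKM + 1) scale.

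When a ribosome reaches a stop codon, eRF1, the product of Etf1, reads the codon, and the GTPase eRF3a, the product of Gspt1, acts with it to release the finished protein. Abce1 then splits the ribosome into its subunits. Ribosomes that stall without a stop codon are opened by a related pair, in which Pelo resembles eRF1 and Hbs1l resembles eRF3. Where termination happens too early in a message, Upf1, an RNA helicase, is phosphorylated by the kinase Smg1 and activated through Upf2 and Upf3b, and the message is degraded by nonsense-mediated decay (NMD). Gspt1 links these steps, since eRF3a binds eRF1, the poly(A)-binding protein and Upf1. In human cells GSPT1 is the target of small-molecule degraders that act through the ubiquitin ligase adaptor cereblon and that have been tried against acute myeloid leukaemia.

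Coordinates are those of GENCODE M21 on GRCm38, the assembly also called mm10. Gspt1 lies on the minus strand of chr16:11219292-11254325 and Etf1 on the minus strand of chr18:34902785-34932007. Abce1 lies on the minus strand of chr8:79683462-79711740. Pelo lies on the minus strand of chr13:115088355-115090186, inside the gene Itga1, and Hbs1l lies on the plus strand of chr10:21295979-21368898. Upf1 lies on the minus strand of chr8:70331525-70353278 and Upf2 on the plus strand of chr2:5951469-6056703. Upf3b lies on the minus strand of chrX:37091678-37110322 and Smg1 on the minus strand of chr7:118131308-118243670.

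Most of these genes have little sequence in common with other genes, but 60.0% of the 50-base windows of the Pelo transcript also occur in Gm49395 or in the antisense gene Gm10734, and 21.5% of those of Hbs1l occur in pseudogenes or an antisense gene. The protein-coding gene and the antisense gene that share windows with Pelo were at 0.95 FPKM or less in every library, and those that share windows with Hbs1l and have a value were at 0.51 FPKM or less. No source used here says how reads from shared sequence were assigned, which leaves the levels of Pelo and Hbs1l uncertain to that extent. Gspt1 is overlapped on the opposite strand by 2610020C07Rik, at 0.65 to 1.74 FPKM in HET and 0.66 to 3.12 FPKM in FL libraries, and the library method marks no strand as far as it is described.

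RefSeq promoter windows (250 bases before the start, GRCm38.p6) matched 8 of the 9 genes. The windows of Gspt1, Upf1, Pelo and Abce1 are shown because the first 3 had the lowest HET levels relative to FL, and Abce1 was the one gene of the set with a higher mean in HET. Each runs 5′ to 3′ on the minus strand of the genome, and capitals mark letters that match a searched motif on either strand.
Gspt1, chr16:11254326-11254575: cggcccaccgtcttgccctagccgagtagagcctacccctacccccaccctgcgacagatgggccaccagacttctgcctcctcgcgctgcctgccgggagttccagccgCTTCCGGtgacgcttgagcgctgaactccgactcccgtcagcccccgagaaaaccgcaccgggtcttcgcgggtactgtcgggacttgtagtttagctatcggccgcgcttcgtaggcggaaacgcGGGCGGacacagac
Upf1, chr8:70353280-70353529: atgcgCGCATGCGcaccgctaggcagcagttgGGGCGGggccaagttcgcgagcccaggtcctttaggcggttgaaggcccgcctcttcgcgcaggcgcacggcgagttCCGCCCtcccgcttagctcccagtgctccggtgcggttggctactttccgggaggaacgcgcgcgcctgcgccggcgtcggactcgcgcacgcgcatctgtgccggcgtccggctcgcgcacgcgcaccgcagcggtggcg
Pelo, chr13:115090159-115090408: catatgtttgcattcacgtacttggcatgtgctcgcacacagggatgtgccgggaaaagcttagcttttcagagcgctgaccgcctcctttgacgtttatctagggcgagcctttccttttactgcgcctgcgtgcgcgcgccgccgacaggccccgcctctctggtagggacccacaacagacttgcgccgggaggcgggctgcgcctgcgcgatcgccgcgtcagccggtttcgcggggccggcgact
Abce1, chr8:79711741-79711990: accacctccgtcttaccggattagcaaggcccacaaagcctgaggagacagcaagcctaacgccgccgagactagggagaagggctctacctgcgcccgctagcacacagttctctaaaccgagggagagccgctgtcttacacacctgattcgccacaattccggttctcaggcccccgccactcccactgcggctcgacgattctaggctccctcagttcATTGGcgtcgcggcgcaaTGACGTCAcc
The Gspt1 window holds an ETS motif (CCGGAAG, here on the opposite strand as CTTCCGG), found in 6.91% of all 32851 RefSeq windows of this length. The Upf1 window holds the core of an NRF1 motif (CGCATGCG), found in 1.55% of all windows, and the Abce1 window holds a cAMP response element (TGACGTCA), found in 1.55%. The core of a YY1 motif (AAGATGGCG), found in 0.606% of all windows, was matched only by Upf3b among the 8 genes. GC boxes (GGGCGG) were in 6 of the 8 windows and in 32.7% of all windows, and CCAAT boxes (CCAAT) in 3 of the 8 and in 33.8% of all. Neither the E-box (CACGTG, 6.02% of all windows) nor the TATA box (TATAAA, 12.4%) was in any of the 8. Marked matches do not overlap one another in the 4 windows shown. The Pelo window holds none of the 8 motifs, so no searched motif was common to the 3 genes with the lowest HET levels relative to FL. The windows of Gspt1, Upf1, Pelo and Abce1 were 66.0%, 72.8%, 63.6% and 60.4% G and C, against a median of 52.4% over all windows.

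Some properties of the libraries bear on every value below. FL 5 and HET 1 stood apart from the other libraries of their groups. On the first principal component of all tested genes, which holds 42.6% of the variance, HET 1 scored 46.4, next to FL 1 to 4 at 19.6 to 42.4, while HET 2 to 5 scored -41.2 to -28.5 with FL 5 among them at -33.3. Nup214 itself was at 31.2 FPKM in HET 1 and at 9.13 to 17.4 FPKM in HET 2 to 5, against 30.0 FPKM in FL 5 and 43.9 to 65.8 FPKM in FL 1 to 4. Its mean was 16.8 ± 8.89 FPKM in HET and 49.4 ± 13.4 FPKM in FL (SD, n = 5 each), with a limma adjusted p of 0.472 over all libraries and 0.0183 without FL 5. Leaving out FL 5, here and below, by itself narrows the spread within FL, because FL 5 lies with the other group. Calls made without it are no independent evidence of a difference. The HSC markers Slamf1 (CD150) and Procr were present at 3.97 ± 1.02 and 4.06 ± 1.99 FPKM in HET and 3.81 ± 1.06 and 3.45 ± 1.22 FPKM in FL. Cd48, which the gate excludes by protein, was at 84.7 ± 22.6 FPKM in HET and 85.1 ± 11.2 FPKM in FL. Markers of other cell types were present in both groups, and their summed levels overlap between the groups for all lists but that of megakaryocytes. The summed level of 9 granulocyte and neutrophil genes was 13469 to 22844 FPKM in HET and 12193 to 17937 FPKM in FL, with 9 of 9 above 0 in log2 fold change. That of 4 megakaryocyte genes was 956.1 to 1737 FPKM in HET and 1763 to 2345 FPKM in FL, with 4 of 4 below 0. Most of this sum is Pf4, at 1110 ± 268 FPKM in HET and 1757 ± 226 FPKM in FL (SD, n = 5 each). Itga2b (141 and 151 FPKM), Gp1bb (28.9 and 35.8 FPKM) and Ppbp (4.15 and 4.67 FPKM) had closer means in HET and FL. The summed level of 6 B and plasma cell genes was 8044 to 101891 FPKM in HET and 2583 to 10874 FPKM in FL, with 5 of 5 tested genes above 0 in log2 fold change. All 5 erythroid and all 5 monocyte and macrophage genes were below 0 in log2 fold change, where 77.3% of all tested genes were, and the 3 tested T and NK genes were above 0. No marker of these lists was at 0 in every library, and the part of other cells in the values below was not tested.

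Gspt1 was at 9.69, 7.43, 8.20, 7.39 and 7.10 FPKM in HET libraries 1 to 5, against 28.6, 31.8, 18.7, 18.8 and 9.79 FPKM in FL libraries 1 to 5. The HET libraries were low and close together, and the FL libraries were high and spread out, with FL 5 next to the highest HET library. The means were 7.96 ± 1.05 FPKM in HET and 21.6 ± 8.78 FPKM in FL (SD, n = 5 each), so HET held 36.9% of the FL mean. The highest HET value and the lowest FL value, 9.69 and 9.79 FPKM, are the members of each group closest to the other. Such a gap, with every HET library below every FL library, was found in 37 of 13041 tested genes (0.284%), and nothing is read from this because Gspt1 was chosen for it. The log2 fold change was -1.24 ± 0.26 (SE), and the median of all tested genes was -0.17, so Gspt1 stood 1.07 below it on the log2 scale (log2 difference -1.07). Without FL 5 the log2 fold change was -1.48, and without both FL 5 and HET 1 it was -1.54. Fewer cells of a type that expresses Gspt1 and less Gspt1 RNA per cell cannot be told apart in these bulk libraries.

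Gspt1 varied little within HET and more within FL. Its coefficient of variation was 13.2% in HET and 40.7% in FL, and the highest library held 1.36 times the lowest in HET and 3.25 times in FL. For Etf1 the same ratio was 1.60 in HET and 1.30 in FL. HET 1, which lay next to FL 1 to 4 on the first principal component, was at 9.69 FPKM for Gspt1, beside 7.10 to 8.20 FPKM in HET 2 to 5. It was still the highest HET library. Because Gspt1 was chosen for its low HET values, nothing is read from the place of HET 1 or from the narrow spread within HET.

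Gspt2, the X-linked paralog that encodes eRF3b, was at 3.50, 2.23, 2.82, 2.10 and 2.63 FPKM in HET libraries 1 to 5, against 2.08, 1.94, 2.27, 1.97 and 2.21 FPKM in FL. The groups overlap and all values are low. Its means were 2.66 ± 0.555 FPKM in HET and 2.09 ± 0.145 FPKM in FL (SD, n = 5 each), with a log2 fold change of 0.23 ± 0.15 (SE) and an adjusted p of 0.507 by limma. No 50-base window of the Gspt2 transcript occurs in Gspt1. Gspt1 was 2.70 to 3.52 times Gspt2 in the HET libraries and 4.43 to 16.4 times Gspt2 in the FL libraries. This gap too follows from the values for which Gspt1 was chosen, and nothing is read from it.

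**Figure D1:**
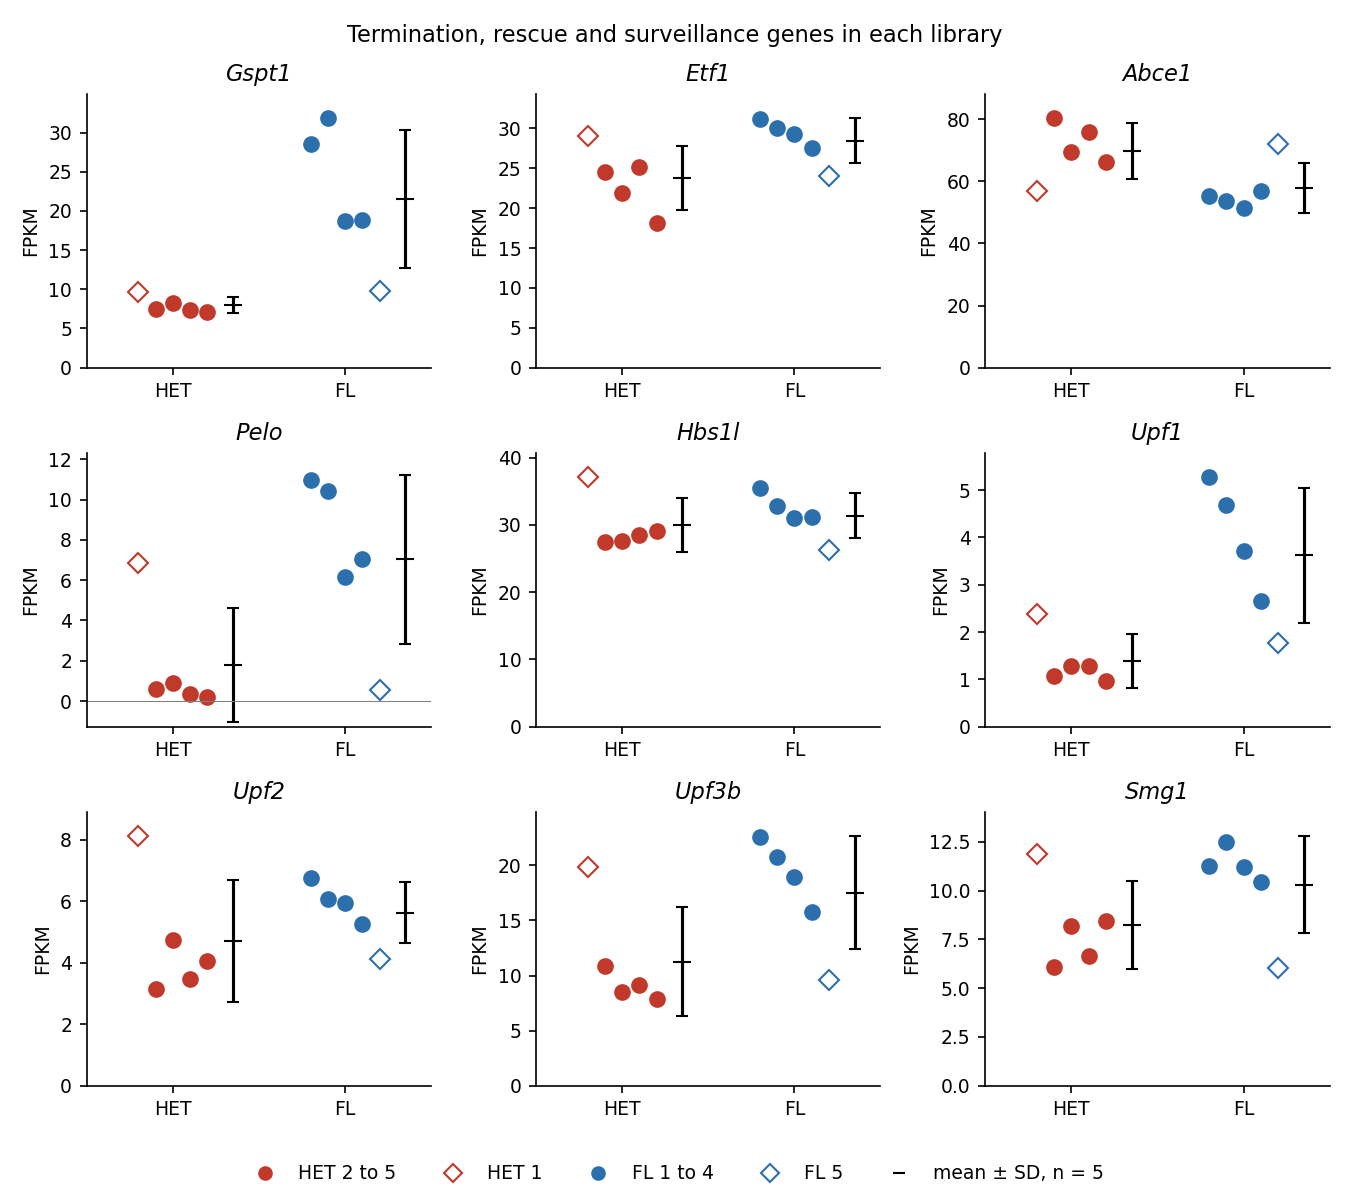
FPKM of the 9 genes in each library, HET left and FL right in each panel, with the mean and SD over 5 libraries in black. Open diamonds are HET 1 and FL 5. Gspt1, chosen for its low HET values, separates the groups (7.10 to 9.69 FPKM in HET and 9.79 to 31.8 FPKM in FL). For the other genes the groups overlap, and Abce1 has its highest FL value in FL 5.

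Of the other 8 genes, 0 passed an adjusted p of 0.05 by limma over all libraries, where 0% of the 13041 tested genes passed. At an unadjusted p under 0.05, 3 of the 8 were lower in HET (Pelo, Upf1 and Upf3b) and 0 were higher, where 8.95% of all tested genes were lower and 1.44% higher. The log2 fold change was below 0 for 7 of the 8, where 77.3% of all tested genes were below 0, and its median was -0.28 over the 8 and -0.17 over all tested genes. All 8 passed the filter on low values (1 FPKM in at least 5 of 10 libraries). Pelo passed it with exactly 5 libraries, FL 1 to 4 and HET 1, and Upf1 with 9, so the low side of these genes lies near the filter.

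Etf1, which encodes the stop codon reader eRF1, was at 29.0, 24.5, 21.9, 25.2 and 18.2 FPKM in HET libraries 1 to 5, against 31.2, 30.1, 29.3, 27.6 and 24.0 FPKM in FL libraries 1 to 5. Every HET library was under the FL median, and the groups overlap through FL 5 and HET 1. The means were 23.7 ± 4.02 FPKM in HET and 28.4 ± 2.82 FPKM in FL (SD, n = 5 each), with a log2 fold change of -0.26 ± 0.14 (SE) and an adjusted p of 0.473 by limma. This lies 0.09 below the median of all tested genes (log2 difference -0.09). The 2 subunits of the release factor therefore stood differently against their FL levels, HET holding 83.5% of the FL mean of Etf1 and 36.9% of that of Gspt1. Gspt1 divided by Etf1 was 0.334, 0.304, 0.375, 0.294 and 0.390 in HET libraries 1 to 5, against 0.917, 1.06, 0.638, 0.684 and 0.408 in FL libraries 1 to 5. The 2 groups of ratios do not overlap, with HET 5 and FL 5 closest, and the gap follows from the values for which Gspt1 was chosen.

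Abce1, the ATPase that separates the ribosomal subunits, was at 56.7, 80.2, 69.3, 76.0 and 66.3 FPKM in HET libraries 1 to 5, against 55.2, 53.6, 51.5, 57.0 and 71.9 FPKM in FL libraries 1 to 5. All 5 HET libraries lay above the FL median. The groups overlap because HET 1 was the lowest HET library and FL 5 the highest FL library. The means were 69.7 ± 9.09 FPKM in HET and 57.8 ± 8.11 FPKM in FL (SD, n = 5 each), with a log2 fold change of 0.27 ± 0.13 (SE) and an adjusted p of 0.472 by limma. Without FL 5 and HET 1 the log2 fold change was 0.42. It was the one gene of the 9 with a log2 fold change above 0 in every alternative run.

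Pelo, the eRF1-like member of the rescue pair, was at 6.87, 0.59, 0.91, 0.37 and 0.22 FPKM in HET libraries 1 to 5, against 10.99, 10.43, 6.15, 7.04 and 0.55 FPKM in FL libraries 1 to 5. HET 2 to 5 and FL 5 were under 1 FPKM, and HET 1 and FL 1 to 4 were above 6 FPKM, with nothing between. The means were 1.79 ± 2.85 FPKM in HET and 7.03 ± 4.18 FPKM in FL (SD, n = 5 each), with a log2 fold change of -1.65 ± 0.65 (SE), an unadjusted p of 0.0289 and an adjusted p of 0.472 by limma. The highest library held 31.2 times the lowest in HET and 20.0 times in FL, more than for any other of the 9 genes. Among 1186 protein-coding genes of like exon length, the lowest step of FPKM shared by at least 10 genes was 0.02 to 0.05 in every library. The low Pelo values thus lie above what a single fragment is worth, the lowest, in HET 5, at 5.5 such steps. In HET libraries Gm49395, which shares sequence with Pelo, was at 0.16 to 0.79 FPKM. Itga1, which contains Pelo on the same strand, was at 0.23 to 1.31 FPKM there. Whether the low values come from Pelo itself was not tested.

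Hbs1l, the GTPase of the rescue pair, was at 37.1, 27.5, 27.7, 28.5 and 29.1 FPKM in HET libraries 1 to 5, against 35.5, 32.8, 31.1, 31.1 and 26.3 FPKM in FL libraries 1 to 5. HET 1 was the highest of all libraries and FL 5 the lowest. The means were 30.0 ± 4.02 FPKM in HET and 31.4 ± 3.36 FPKM in FL (SD, n = 5 each), with a log2 fold change of -0.07 ± 0.12 (SE) and an adjusted p of 0.788 by limma. Its sign flips to 0.14 with median-ratio scaling of the libraries and to 0.13 with quantile normalization, so Hbs1l has no settled direction. The 2 genes of the rescue pair thus had unlike levels, 30.0 FPKM of Hbs1l beside 1.79 FPKM of Pelo in HET and 31.4 FPKM beside 7.03 FPKM in FL.

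Upf1, the helicase at the centre of NMD, was at 2.39, 1.07, 1.28, 1.28 and 0.97 FPKM in HET libraries 1 to 5, against 5.27, 4.69, 3.71, 2.66 and 1.77 FPKM in FL libraries 1 to 5. The groups overlap only through HET 1 and FL 5. The means were 1.40 ± 0.571 FPKM in HET and 3.62 ± 1.43 FPKM in FL (SD, n = 5 each), so HET held 38.6% of the FL mean. The log2 fold change was -0.91 ± 0.24 (SE), with an unadjusted p of 0.00277 and an adjusted p of 0.472 by limma. Without FL 5 it was -1.08 with an adjusted p of 0.0262 by limma, and Upf1 was then the 1 gene of the 8 that passed, where 3.14% of all tested genes passed. FL 5 was the lowest FL library for Upf1, so this call is no independent evidence of a difference. Upf1 and Pelo transcripts are the most GC-rich of the 9, at 57.9% each, where the others are 40.3% to 48.2%, and the part of base composition in these values was not tested.

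Upf2, which carries Upf3b to Upf1, was at 8.10, 3.15, 4.72, 3.46 and 4.06 FPKM in HET libraries 1 to 5, against 6.76, 6.06, 5.94, 5.25 and 4.11 FPKM in FL libraries 1 to 5. HET 1 was the highest of all 10, and the 4 other HET libraries lay below the FL median. The means were 4.70 ± 1.99 FPKM in HET and 5.62 ± 1.0 FPKM in FL (SD, n = 5 each), with a log2 fold change of -0.26 ± 0.22 (SE) and an adjusted p of 0.570 by limma.

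Upf3b, the X-linked factor that links Upf2 to the exon junction complex, was at 19.8, 10.9, 8.47, 9.11 and 7.89 FPKM in HET libraries 1 to 5, against 22.5, 20.8, 19.0, 15.8 and 9.56 FPKM in FL libraries 1 to 5. HET 1 lay within the range of FL 1 to 4, and FL 5 within that of the other HET libraries. The means were 11.2 ± 4.94 FPKM in HET and 17.5 ± 5.10 FPKM in FL (SD, n = 5 each), with a log2 fold change of -0.62 ± 0.27 (SE), an unadjusted p of 0.0401 and an adjusted p of 0.472 by limma.

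Smg1, the kinase that phosphorylates Upf1, was at 11.9, 6.07, 8.18, 6.63 and 8.42 FPKM in HET libraries 1 to 5, against 11.3, 12.5, 11.2, 10.5 and 6.04 FPKM in FL libraries 1 to 5. The lowest of all 10 libraries was FL 5. The means were 8.24 ± 2.27 FPKM in HET and 10.3 ± 2.49 FPKM in FL (SD, n = 5 each), with a log2 fold change of -0.29 ± 0.21 (SE) and an adjusted p of 0.537 by limma.

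HET 1 was the highest HET library and FL 5 the lowest FL library for 8 of the 9 genes, where 54.9% of all tested genes had this order, and Abce1 had the opposite order, as did 4.1% of all tested genes. Without both libraries 7 of the 8 genes other than Gspt1 passed an adjusted p of 0.05 by limma, 6 lower and 1 higher in HET, where 42.2% of all tested genes passed lower and 3.44% higher. These 2 libraries were left out because they lie with the other group, which by itself narrows the spread within groups, so these calls are no independent evidence of a difference. All tested genes gave 5954 calls without both libraries and 0 with all of them. Without both, the log2 fold change of Pelo was -2.65, that of Upf1 -1.21 and that of Upf3b -1.02. Smg1 was at -0.58, Upf2 at -0.54 and Etf1 at -0.39, while Hbs1l at -0.20 was the gene that did not pass. The median log2 fold change of all tested genes was then -0.33, so Etf1 stood near it and Hbs1l above it. Limma with a quality weight for each library gave FL 5 a weight of 0.236 and HET 1 of 0.149, the others 0.785 to 3.38, and also called 7 of the 8 genes, 6 lower and 1 higher, where 47.8% of all tested genes were called lower and 4.87% higher. The weights down-weight the same 2 libraries. With 1 library left out at a time, the log2 fold change of Upf2 (-0.26) was -0.45 without HET 1 and -0.16 without HET 2. That of Smg1 (-0.29) was -0.45 without FL 5 and -0.20 without HET 2, and that of Etf1 (-0.26) was -0.17 without HET 5. Hbs1l ran from -0.14 to -0.02.

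**Figure D2:**
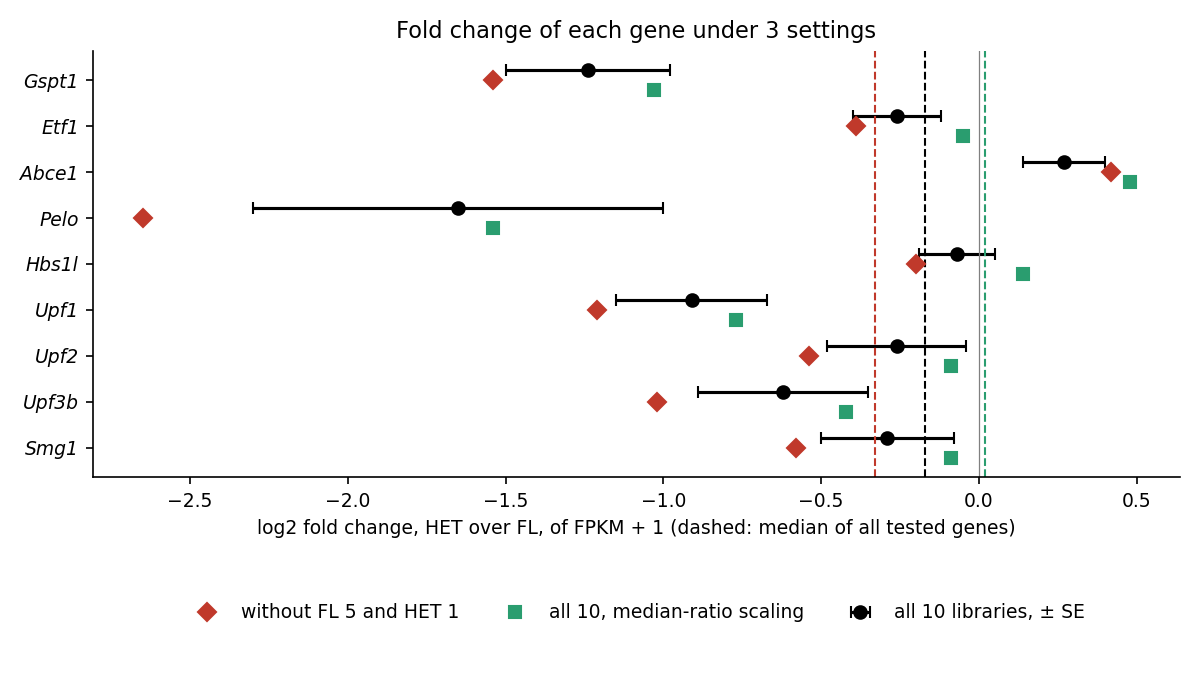
Log2 fold change of FPKM + 1, HET over FL, of the 9 genes with all 10 libraries (black, with SE), without FL 5 and HET 1 (red) and with median-ratio scaling (green), and the median of all tested genes under each (dashed). Abce1 lies to the right of the median in each setting (0.27, 0.42 and 0.48) and so does Hbs1l, which changes sign, while the other 7 genes lie to the left of it, Etf1, Upf2 and Smg1 closest.

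The smaller values moved with the scaling of the libraries. The median log2 fold change of all tested genes was -0.17 on the deposited scale and 0.02 with median-ratio scaling. With median-ratio scaling Gspt1 was at -1.03, Pelo at -1.54, Upf1 at -0.77, Upf3b at -0.42 and Abce1 at 0.48. Etf1 at -0.05, Upf2 at -0.09 and Smg1 at -0.09 were then close to 0, 6 of the 8 genes other than Gspt1 were below 0, where 46.5% of all tested genes were. At an adjusted p of 0.05 by limma, 0 of the 8 then passed, where 0.00767% of all tested genes did. The unadjusted p was under 0.05 for 3 of the 8, and for 1526 of all 13041 tested genes.

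Ratios of partner genes within a library do not depend on that scaling. The log2 ratio of Upf2 to Upf1 was 1.76, 1.56, 1.88, 1.43 and 2.07 in HET libraries 1 to 5, against 0.36, 0.37, 0.68, 0.98 and 1.22 in FL libraries 1 to 5. The groups do not overlap, and here HET 1 lay with the other HET libraries. The mean log2 ratio was 1.74 ± 0.25 in HET and 0.72 ± 0.38 in FL (SD, n = 5 each), a difference of 1.02 (p = 0.00794, adjusted p over 4 ratios = 0.0159, exact two-sided permutation test over 252 assignments of the libraries). This p is the smallest the design can give.

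The log2 ratio of Smg1 to Upf1 was 2.31, 2.50, 2.68, 2.37 and 3.12 in HET libraries 1 to 5, against 1.09, 1.41, 1.60, 1.97 and 1.77 in FL libraries 1 to 5. These groups do not overlap either. The mean was 2.60 ± 0.32 in HET and 1.57 ± 0.34 in FL (SD, n = 5 each), a difference of 1.03 (p = 0.00794, adjusted p = 0.0159, exact two-sided permutation test). Both ratios have Upf1 below the line, so they are not independent of each other. Upf1 was thus lower against 2 of its partners in all 5 HET libraries than in any FL library. Its own log2 fold change stood 0.75 below the median of all tested genes (log2 difference -0.75). How many other genes separate the groups when divided by Upf1 was not counted. Nothing particular to these 2 partners is therefore read from the ratios.

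Hbs1l to Pelo had log2 ratios of 2.43, 5.54, 4.93, 6.27 and 7.05 in HET libraries 1 to 5, against 1.69, 1.65, 2.34, 2.14 and 5.58 in FL libraries 1 to 5. HET 1 lay near FL 1 to 4, and FL 5 lay among the other HET libraries. The mean was 5.24 ± 1.76 in HET and 2.68 ± 1.65 in FL (SD, n = 5 each), a difference of 2.56 (p = 0.0476, adjusted p = 0.0476, exact two-sided permutation test). Leaving out any one of the 8 libraries other than FL 5 and HET 1 ended this call, with an adjusted p of up to 0.0873. Pelo was at 0.22 to 0.91 FPKM in HET 2 to 5, so the high ratios rest on low values. It passed the filter on low values through FL 1 to 4 and HET 1 only.

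Abce1 to Etf1 had log2 ratios of 0.97, 1.71, 1.66, 1.59 and 1.87 in HET libraries 1 to 5, against 0.82, 0.83, 0.81, 1.05 and 1.58 in FL libraries 1 to 5. Again HET 1 was near FL 1 to 4 and FL 5 near the other HET libraries. The mean was 1.56 ± 0.35 in HET and 1.02 ± 0.33 in FL (SD, n = 5 each), a difference of 0.54 (p = 0.0397, adjusted p = 0.0476, exact two-sided permutation test). This call too ended without any one of the same 8 libraries, with an adjusted p of up to 0.0873. Without both FL 5 and HET 1 the 4 differences, in the order given here, were 1.14, 1.15, 3.99 and 0.83, given with no test because leaving out the libraries that lie with the other group itself separates the groups.

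**Figure D3:**
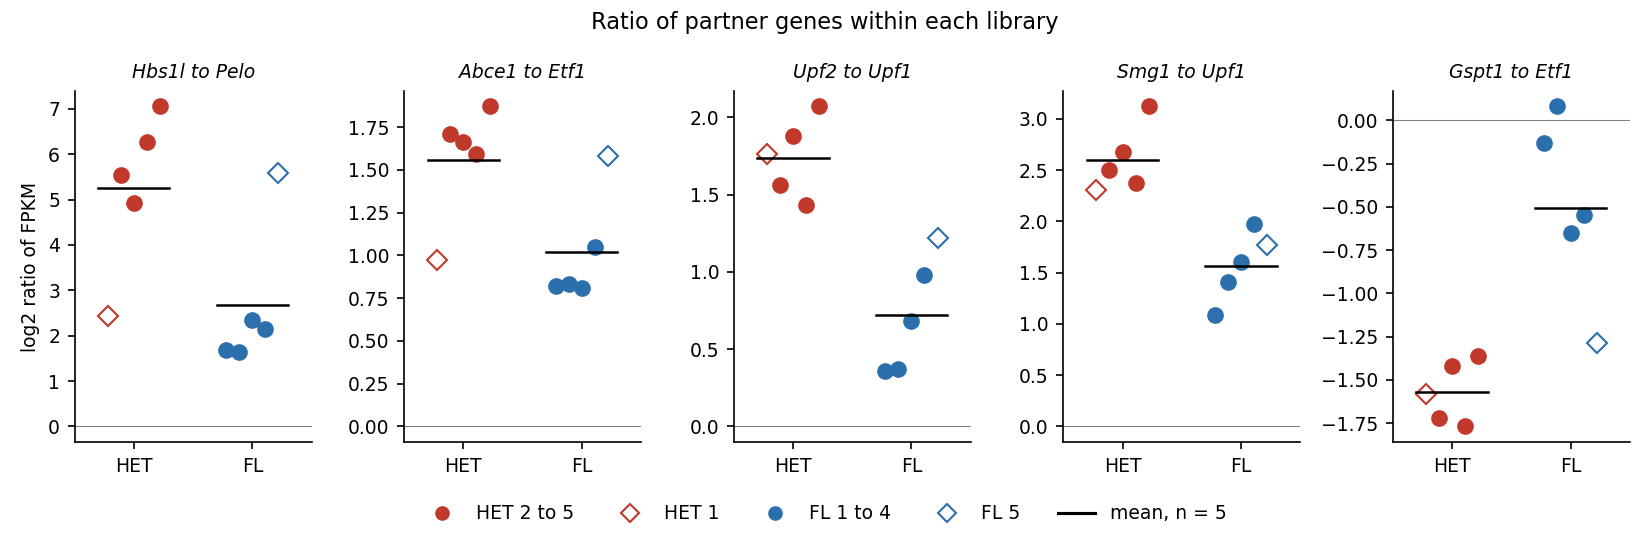
Log2 ratio of the FPKM of 2 genes within each library, HET left and FL right, with the mean over 5 libraries as a bar and HET 1 and FL 5 as open diamonds; each panel has its own axis. The ratios to Upf1 do not overlap between the groups, while in Hbs1l to Pelo and Abce1 to Etf1 the open diamonds lie with the other group. Gspt1 to Etf1 is shown with no test.

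The order of the levels, which FPKM gives per length of transcript, was led by the same 3 genes in both groups. In HET, Abce1 averaged 69.7 FPKM, Hbs1l 30.0 FPKM and Etf1 23.7 FPKM, and each was above the next in 5 of 5 libraries. Upf3b at 11.2 FPKM, Smg1 at 8.24 FPKM and Gspt1 at 7.96 FPKM came next in HET. Upf3b was above Smg1 in 4 of 5 libraries and Smg1 above Gspt1 in 2 of 5, so Smg1 and Gspt1 had no settled order. Upf2 at 4.70 FPKM was above Pelo in 5 of 5 HET libraries, and Pelo at 1.79 FPKM was above Upf1 at 1.40 FPKM in 1 of 5. In FL, Gspt1 at 21.6 FPKM stood just below Etf1 at 28.4 FPKM and just above Upf3b at 17.5 FPKM, each step holding in 4 of 5 libraries. Gspt1 was thus the fourth most abundant of the 9 in FL and the sixth in HET. Upf1 had the lowest mean of the 9 in both groups, but in HET this rests on HET 1, since Pelo was below Upf1 in HET 2 to 5.

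The genes whose values across the 10 libraries were most like those of Gspt1 were sought by the root mean square difference of centred log2(FPKM + 1) values over 10601 protein-coding genes, whose median difference was 0.64. The nearest were Naf1 (0.12), an assembly factor of H/ACA ribonucleoproteins, and Slain2 (0.13), a microtubule plus-end protein. Prkar2b (0.16), a regulatory subunit of protein kinase A, Suv39h2 (0.17), a histone H3 methyltransferase, and Rab5a (0.19), a GTPase of early endosomes, came next. Rab5a, for example, was at 9.68, 5.52, 6.68, 5.82 and 5.90 FPKM in HET libraries 1 to 5, against 19.8, 23.3, 12.2, 11.5 and 6.29 FPKM in FL libraries 1 to 5. As in Gspt1, FL 1 and FL 2 were the highest libraries and HET 1 was below FL 1 to 4. The 5 genes were picked for this likeness, so nothing further is read from it. Upf1 was the closest of the other 8 genes of the set, at rank 22 with a difference of 0.24, and Upf3b followed at rank 380 with 0.42. Smg1, Upf2 and Etf1 ranked from 1991 to 3647. Hbs1l at rank 6316 (0.67), Pelo at rank 8706 (0.75) and Abce1 at rank 10241 (0.93) were farther from Gspt1 than the median gene. The difference counts the size of a change as well as its direction, so a far rank does not by itself mean an opposite direction.

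The wider pathway was described through 8 lists with 114 tested genes beside the 9. Of the 114, 0 passed an adjusted p of 0.05 by limma, 16 were lower and 0 higher at an unadjusted p under 0.05, where 8.95% of all tested genes were lower and 1.44% higher. A log2 fold change below 0 was found for 97, where 77.3% of all tested genes were below 0. Their median was -0.20, beside -0.17 over all tested genes, and 0 with median-ratio scaling beside 0.02. HET 1 was the highest HET library and FL 5 the lowest FL library in 76 of the 114, where 54.9% of all tested genes had this order. Without both libraries 60 passed lower and 1 higher, where 42.2% of all tested genes passed lower and 3.44% higher. Without FL 5 alone 3 passed (Casc3, Cnot11 and Gadd45a, all lower), where 3.14% of all tested genes passed, so the lists held no more calls than that share.

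**Figure D4:**
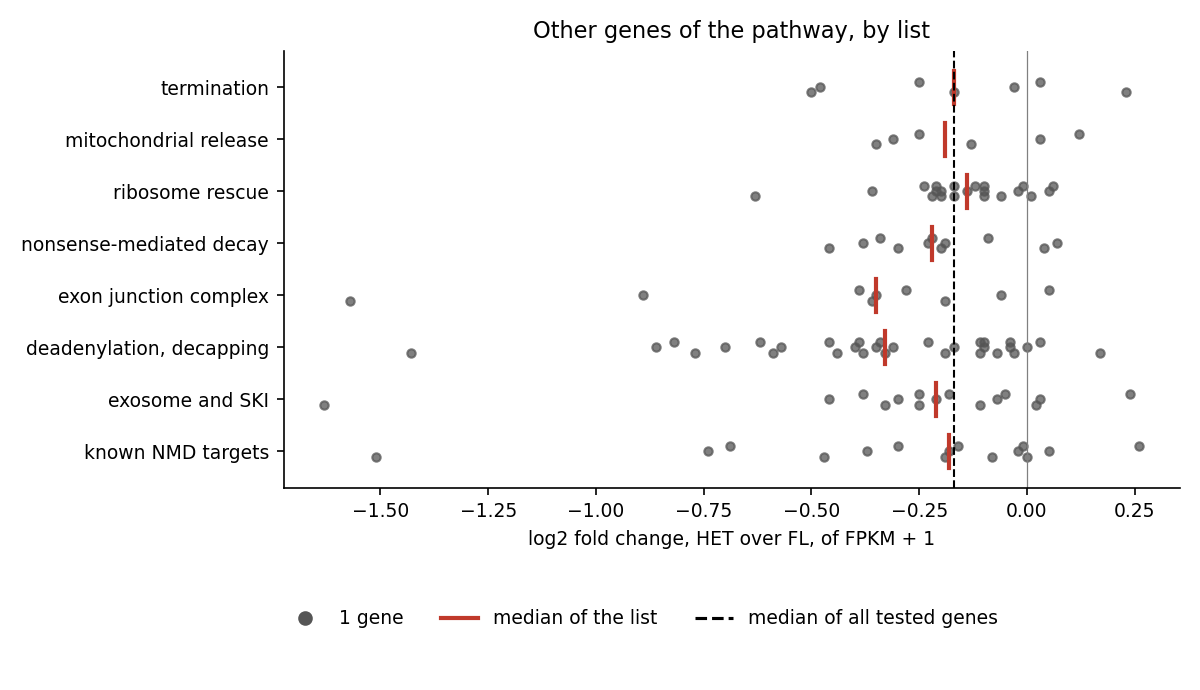
Log2 fold change of FPKM + 1, HET over FL, of each tested gene of the 8 lists (grey points), the median of each list (red bar) and the median of all tested genes (dashed, -0.17). The list medians run from -0.35 to -0.14, on both sides of the dashed line, and the exon junction, deadenylation, exosome and target lists have 1 gene each below -1.

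Among 7 further termination genes, which modify, bind or assist the release factors, 5 were below 0, where 77.3% of all tested genes were, and the median was -0.17. Ddx19a, a helicase that acts at the nuclear pore and in termination, averaged 5.37 ± 1.40 FPKM in HET and 8.08 ± 2.14 FPKM in FL (SD, n = 5 each), with an unadjusted p of 0.0309 and an adjusted p of 0.472 by limma. N6amt1, the catalytic subunit of the methyltransferase that modifies eRF1, averaged 8.47 ± 3.20 FPKM in HET and 12.0 ± 2.99 FPKM in FL (SD, n = 5 each), with an adjusted p of 0.472 by limma. Among 6 mitochondrial release and recycling genes 4 were below 0, with a median of -0.19. Mrpl58 (ICT1), a mitochondrial peptidyl-tRNA hydrolase, averaged 48.9 ± 11.4 FPKM in HET and 63.5 ± 16.3 FPKM in FL, and Mrrf, the mitochondrial recycling factor, 9.14 ± 2.20 FPKM in HET and 11.7 ± 3.41 FPKM in FL (SD, n = 5 each). Neither list had a gene that passed, and their medians lay near that of all tested genes.

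Among 21 further ribosome rescue and quality control genes 18 were below 0, where 77.3% of all tested genes were, with a median of -0.14. Nemf, which recognises the peptide-bearing large subunit left after splitting, averaged 48.0 ± 18.9 FPKM in HET and 73.8 ± 20.3 FPKM in FL (SD, n = 5 each), with an unadjusted p of 0.0280 and an adjusted p of 0.472 by limma. Gcn1, a sensor of collided ribosomes, averaged 21.1 ± 2.97 FPKM in HET and 24.4 ± 3.53 FPKM in FL (SD, n = 5 each). Nemf, at a log2 fold change of -0.63, was the lowest of the 21, and none was as low as Pelo at -1.65.

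Among 11 further NMD factors 9 were below 0, where 77.3% of all tested genes were, with a median of -0.22. An unadjusted p under 0.05 by limma was found for 0 of the 11. Smg9, a subunit of the Smg1 kinase complex, averaged 18.8 ± 4.97 FPKM in HET and 25.1 ± 7.10 FPKM in FL, and Nbas averaged 4.41 ± 1.07 FPKM in HET and 5.66 ± 1.29 FPKM in FL (SD, n = 5 each), with adjusted p values of 0.495 and 0.504 by limma.

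The exon junction complex marks spliced messages for surveillance. Of its 9 listed genes 8 were below 0, where 77.3% of all tested genes were. The list median was -0.35, beside -0.17 over all tested genes, and -0.14 with median-ratio scaling, beside 0.02. Casc3 (Barentsz), a core subunit, was at 12.2, 2.50, 3.49, 2.74 and 3.32 FPKM in HET libraries 1 to 5, against 22.3, 20.8, 19.4, 17.5 and 2.99 FPKM in FL libraries 1 to 5. As in Pelo, FL 5 lay with 4 HET libraries, and HET 1 lay between them and FL 1 to 4. Its log2 fold change was -1.57 with an adjusted p of 0.472 by limma, and -2.04 with an adjusted p of 0.0157 without FL 5. Eif4a3, the helicase that clamps the complex on RNA, averaged 224 ± 33.0 FPKM in HET and 286 ± 27.6 FPKM in FL (SD, n = 5 each), with an unadjusted p of 0.0131 and an adjusted p of 0.472 by limma.

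Of 31 genes of deadenylation and decapping, the steps that start the decay of a message, 29 were below 0, where 77.3% of all tested genes were. The list median was -0.33, beside -0.17 over all tested genes, and -0.12 with median-ratio scaling, beside 0.02. At an unadjusted p under 0.05, 6 of the 31 were lower, where 8.95% of all tested genes were. Cnot11, a subunit of the CCR4-NOT deadenylase, averaged 1.27 ± 0.712 FPKM in HET and 2.83 ± 0.88 FPKM in FL (SD, n = 5 each), with an adjusted p of 0.472 by limma and of 0.0442 without FL 5. Dcp2, the decapping enzyme, averaged 14.1 ± 4.67 FPKM in HET and 20.9 ± 2.91 FPKM in FL (SD, n = 5 each), with an adjusted p of 0.472 by limma, and here FL 5 at 21.3 FPKM was among the high FL libraries. Pabpc1, the poly(A)-binding protein that eRF3a contacts, was picked out after its values were seen. It was at 1269 FPKM in HET 1 and 234.7 to 350.0 FPKM in HET 2 to 5, against 352 FPKM in FL 5 and 1020.1 to 1631 FPKM in FL 1 to 4. Its log2 fold change was -1.43 with an adjusted p of 0.472 by limma over all libraries, and -2.24 without FL 5 and HET 1.

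Of 15 genes of the RNA exosome and its SKI partner, which degrade RNA from the 3′ end, 12 were below 0, where 77.3% of all tested genes were. The list median was -0.21. Exosc1 averaged 49.2 ± 11.6 FPKM in HET and 68.1 ± 14.0 FPKM in FL (SD, n = 5 each), with an adjusted p of 0.472 by limma. Exosc6 was at 8.92, 3.71, 5.35, 0 and 2.63 FPKM in HET libraries 1 to 5, against 19.1, 22.2, 15.4, 12.9 and 1.88 FPKM in FL libraries 1 to 5, so it is listed at 0 in HET 4. Its groups overlap through FL 5, and its adjusted p was 0.472 by limma.

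Of 15 messages known as NMD targets in mammalian cells, 13 were below 0 in HET over FL, where 77.3% of all tested genes were. Their median was -0.18 on the deposited scale, beside -0.17 over all tested genes, and 0.02 with median-ratio scaling, the same as over all tested genes. Gadd45a, a stress-induced gene, averaged 5.26 ± 3.88 FPKM in HET and 17.0 ± 8.07 FPKM in FL (SD, n = 5 each), with a log2 fold change of -1.51, an adjusted p of 0.472 by limma and one of 0.0175 without FL 5. Nat9, an acetyltransferase gene, averaged 14.3 ± 4.02 FPKM in HET and 19.9 ± 2.92 FPKM in FL (SD, n = 5 each), with an adjusted p of 0.472 by limma. Atf4, the stress response factor, was picked out after its values were seen and averaged 85.6 ± 12.7 FPKM in HET and 88.4 ± 24.1 FPKM in FL (SD, n = 5 each), with a log2 fold change of -0.02. Some of these genes, such as Smg5, are also factors of NMD and stand in both lists.

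Actb, Gapdh and Rpl3 served as points of comparison. Their log2 fold changes on the deposited scale were -0.22, 0.08 and 0.55.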

How the data were processed

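RNA of 10 mouse HSC libraries was extracted with a miRNeasy kit, amplified by the Geo-seq method and made into libraries with the TruePrep V2 transposase kit, per the labels' protocols, with no mention of molecular identifiers or of strand. The authors deposited FPKM per gene. The submitters' processing notes list Cufflinks 2.1.1, Bowtie 0.12.9, DESeq2 and HTSeq beside the build mm10, without saying what each did. The FPKM of a library summed to 896054 to 1066190. No read totals were used, so there are no intervals for counting error.

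All 52096 identifiers matched GENCODE M21. Genes that reached 1 FPKM in 5 or more of the 10 libraries (13041) were fitted as log2(FPKM + 1) by limma 3.58.1 in R 4.3.3 (trend, robust, genotype as the only term), with Benjamini-Hochberg adjustment over all of them at 0.05. Such fold changes understate those of low genes. The 4 partner ratios were compared by an exact permutation test. The fit was tested on simulated data. The members, the gene lists, the motifs and the 2 libraries left out together were chosen with earlier results of these data known. The text names the 9 genes, Gspt2, Nup214, the 2 genes of each list with the smallest p, the 5 genes most like Gspt1 and 3 points of comparison. Pabpc1 and Atf4 were added after their values were seen, and Smg5 as an example of a gene in 2 lists. Markers of cell types and genes that overlap or share sequence with the 9 are named too. Promoter windows are from RefSeq. Python 3.11.15 with pandas 2.3.3 and matplotlib 3.10.9 made the tables and plots. Alternatives covered the pseudocount, the filter, scaling, shrinkage, quality weights, a replicate block and each library left out. The RefSeq window of Etf1 and protein sequences were not used here. The level of 1 marker gene is not reported here.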

Additional observations from a re-analysis of the deposited data

Results flagged for a closer look

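In 5 of 20 groups of 5 libraries examined (the 9 genes and Gspt2 in HET and in FL), 1 library lay apart from the other 4 by more than 0.71 of the range of the group, and chance gives about 1 in 20 such groups. HET 1 was the high library 3 times: Pelo at 6.87 FPKM, with a gap of 0.76 of the range, Hbs1l at 37.1 FPKM, with 0.812, and Upf1 at 2.39 FPKM, with 0.731. FL 5 was the low library for Pelo at 0.55 FPKM, with a gap of 0.747 of the range, and for Smg1 at 6.04 FPKM, with 0.748. These are the same 2 libraries that stand apart on the first principal component.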

How the results depend on the processing

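The log2 fold changes of Gspt1, Etf1, Abce1, Pelo, Upf1, Upf2, Upf3b and Smg1 kept their direction under every alternative run for them, and that of Hbs1l turned to 0.14 with median-ratio scaling and 0.13 with quantile normalization (-0.07 over all libraries). With each library left out in turn, Gspt1 ran from -1.48 to -1.08, and the calls numbered 0 to 1 of the 8 genes other than Gspt1, 0 to 3 of the 114 pathway genes and 0 to 409 of all tested genes. The 409 came without FL 5, and 1 gene each without HET 1, HET 2 or HET 5. Quality weights gave 7, 68 and 6869 calls in the same order, leaving out FL 5 and HET 1 together 7, 61 and 5954, and median-ratio scaling and quantile normalization 1 call each among all genes. Leaving out 1 library moved the log2 ratios to 2.11 to 3.29 for Hbs1l to Pelo, 0.46 to 0.69 for Abce1 to Etf1, 0.93 to 1.14 for Upf2 to Upf1 and 0.90 to 1.13 for Smg1 to Upf1, and the last 2 stayed past the threshold each time. Pelo and Upf1 were not tested where an FPKM of 1 was required in every library. The labels give replicate numbers, and same-numbered libraries deviated together for some numbers and against each other for others (correlations of -0.172 to 0.23). HET 1, HET 4 and HET 5 matched the FL library of the same number best, while HET 2 and HET 3 matched another. Whether same-numbered libraries are paired cannot be told from this. With a replicate block limma called 0 of the 8 genes and 0 of all genes. Its unadjusted p was then under 0.05 for 4 of the 8, and for 2434 of all 13041 tested genes. The paired exact test of the 4 ratios (differences of 2.56, 0.54, 1.02 and 1.03) gave p = 0.0625, the smallest that 5 pairs allow. Read totals were not used, so the precision of low values such as those of Pelo and Upf1 is not known.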
